A study of Mus musculus with 6 samples.

Results

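RefSeq gives every noncoding transcript an identifier that starts with NR_, and the entries described here were all those of the deposited lung RNA-seq table that carry this prefix, each taken by itself. They were 3719 of 64529 entries and bore 3247 gene symbols. The others were 27457 RefSeq mRNA entries (NM_) and 33353 FANTOM3 cDNA clone entries. The table compares wild type (WT) with TSPO knockout (KO) mice, both labelled C57BL/6 (the parent lines were on a C57BL/6J background), 6 to 8 weeks old and kept under specific pathogen free conditions. The KO mice are homozygous for a germ-line deletion of exons 2 and 3 of Tspo, made by mating floxed mice to a Cre line driven by the protamine promoter, which is active in sperm, so that the gene is lost in every tissue. RNA from the lungs of 9 mice per genotype was combined into 3 pools of 3 littermates, and each pool gave 1 library. A spread between pools is therefore not a spread between single mice, and the sex of the mice in each pool is not stated. The 6 libraries held 16180108 to 19453607 counts, and levels below are CPM, counts over all entries tested scaled to a common library size with TMM.

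Noncoding RNAs act without being translated. Ribosomal RNA, the RNA of RNase P and RNase MRP, small nucleolar RNAs (snoRNAs) and microRNAs are short or processed RNAs that build, modify or silence other RNAs, and many of them carry no poly(A) tail. Long noncoding RNAs such as Xist, Malat1 and Neat1 are spliced or unspliced nuclear transcripts that coat a chromosome or gather in nuclear bodies, and many others have no known role. RefSeq also gives an NR_ identifier to transcribed pseudogenes and to splice variants of coding genes that are not thought to be translated.

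The mature sequences of 5 microRNA precursors, those with the highest counts among the ones found in the sequence table, are shown first, since their length and place bear on what their counts measure. Each line gives a mature microRNA of RefSeq (GRCm38.p6) from 5′ to 3′, with its seed, bases 2 to 8, in capitals.

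mmu-miR-3064-5p, chr11:106782736-106782757, minus strand: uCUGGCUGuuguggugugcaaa

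mmu-miR-3064-3p, chr11:106782695-106782716, minus strand: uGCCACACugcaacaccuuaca

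mmu-miR-5114, chr19:44303171-44303192, plus strand: aCUGGAGAcggaagcugcaaga

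mmu-miR-1982-5p, chr10:80828808-80828827, plus strand: uUGGGAGGguccuggggagg

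mmu-miR-1982-3p, chr10:80828848-80828870, plus strand: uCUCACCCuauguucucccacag

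mmu-miR-686, chr14:54616746-54616767, minus strand: aUUGCUUCccagacggugaaga

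mmu-miR-546, chr10:126998471-126998486, plus strand: aUGGUGGCacggaguc

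No 2 of these seeds were the same. The mature RNAs are 16 to 23 nt long, shorter than the 50 nt reads of these libraries. The hairpin of Mir3064 lies whole within an exon of Ddx5 (an RNA helicase) on the same strand, and its level was 11.2, 11.5 and 10.3 CPM in WT pools 1, 2 and 3 and 11.4, 10.3 and 11.5 CPM in KO pools 1, 2 and 3. Mir5114 lies within an exon of Scd2, a fatty acid desaturase, at 8.66, 11.04 and 10.1 CPM in WT and 8.40, 10.5 and 9.75 CPM in KO. Mir1982 lies within an exon of Oaz1, the inhibitor of ornithine decarboxylase, at 9.43, 8.73 and 8.99 CPM in WT and 8.96, 9.53 and 10.8 CPM in KO. The genotypes overlapped in each of these 3 hairpins. Mir686 lies within an exon of Psmb5, a catalytic subunit of the proteasome, and Mir546 within an exon of Ctdsp2, a phosphatase.

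Of 710 hairpin entries, 431 had no count in any pool and 37 had a mean of at least 10 counts. Of these 37 hairpins, 19 lay whole and 6 in part in an exon of another gene on the same strand, 2 lay in an exon of the opposite strand, 4 in an intron and 1 outside annotated genes, while 5 were not in the table of hairpin positions used here. Whether their counts came from precursors of the microRNA or from the mRNA around them was not tested.

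A second set of sequences shows the RNAs that set 1 WT pool apart, described further below. Rpph1 is the RNA of RNase P, the enzyme that trims the 5′ end of precursor tRNAs, and Rprl3 is a related gene. The lines give the first 120 bases of each transcript in the GENCODE annotation (GRCm38), with capitals where the aligned base of the other differs.

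Rpph1, chr14:50807648-50807767, minus strand: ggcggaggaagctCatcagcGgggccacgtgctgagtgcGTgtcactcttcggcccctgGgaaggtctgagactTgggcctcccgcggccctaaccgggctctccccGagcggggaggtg

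Rprl3, chr8:3803239-3803358, minus strand: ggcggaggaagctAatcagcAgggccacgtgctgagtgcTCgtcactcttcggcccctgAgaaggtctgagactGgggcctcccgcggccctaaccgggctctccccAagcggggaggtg

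Over this stretch the transcripts differ at 7 bases, and over the whole alignment 246 of 320 columns (76.9%) are identical. No identical run in this stretch is as long as the 50 nt reads, so a full read within it crosses a differing base. How reads that aligned to both genes were counted is not stated. Rmrp is the RNA of RNase MRP, an enzyme related to RNase P that cleaves precursor ribosomal RNA. Its alignment with Rpph1 is identical in 170 of 329 columns (51.7%), and its first 120 bases are shown for comparison, with no capitals.

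Rmrp, chr4:43492939-43493058, minus strand: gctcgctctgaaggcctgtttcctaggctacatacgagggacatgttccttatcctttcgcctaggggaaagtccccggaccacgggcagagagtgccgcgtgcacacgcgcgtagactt

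Most noncoding entries were low or not seen in lung. Of the 3719 entries, 1128 had no count in any pool and 1166 (31.4%) had a mean of at least 10 counts. The test kept 1178 entries with 991 symbols, and 2541 had too few counts. By kind, a mean of at least 10 counts was reached by 377 of 425 noncoding variants of coding genes, 17 of 20 hosts of snoRNAs or microRNAs and 90 of 204 other named RNAs. It was reached by 609 of 2059 RNAs with a predicted or RIKEN name, 22 of 93 named pseudogenes and 8 of 36 RNAs named as antisense or opposite strand. It was also reached by 4 of 13 small structural RNAs, 1 of 11 ribosomal RNAs and 1 of 148 snoRNAs. The snoRNA was Snora52, which guides pseudouridylation, at 5.81, 5.60 and 5.24 CPM in WT and 5.41, 5.86 and 4.13 CPM in KO. Its groups overlapped. Of the entries with a mean of at least 10 counts, 206 had the same counts in every pool as a FANTOM3 clone entry and 22 the same as an mRNA entry.

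The counts of a noncoding variant of a coding gene were mostly close to those of the mRNA. For the 377 variants with a mean of at least 10 counts, the median count was 99.7% of that of the gene's highest mRNA entry, and 280 lay between 90% and 110%. Ager (RAGE, a receptor that marks alveolar type 1 cells) shows this in its noncoding variant NR_073175, which stood at 871, 1011 and 790 CPM in WT and 938, 1066 and 1037 CPM in KO, and its 101268 counts over the 6 pools were 100.6% of the 100714 counts of the mRNA NM_007425. The genotypes overlapped, with a log2 fold change of 0.19 (SE 0.15). A variant of Fth1, the heavy chain of ferritin, had 93792 counts against 93791 of the mRNA.

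The other variants lay outside that range, most of them below it. Under 10% of the counts were found for 3 entries, named after their values were seen. These were a variant of Sec14l1, a lipid transfer protein, at 3.43%, and 2 variants of Zfp672, a zinc finger protein, at 6.83% and 7.35%. In 25 variants the count was over 110% of the mRNA's, up to 1264% in Nkx6-2 (a homeobox factor), where 493 counts stood against 39. Entries that share exons share reads, so these 425 entries do not measure the noncoding form alone.

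**Figure D1:**
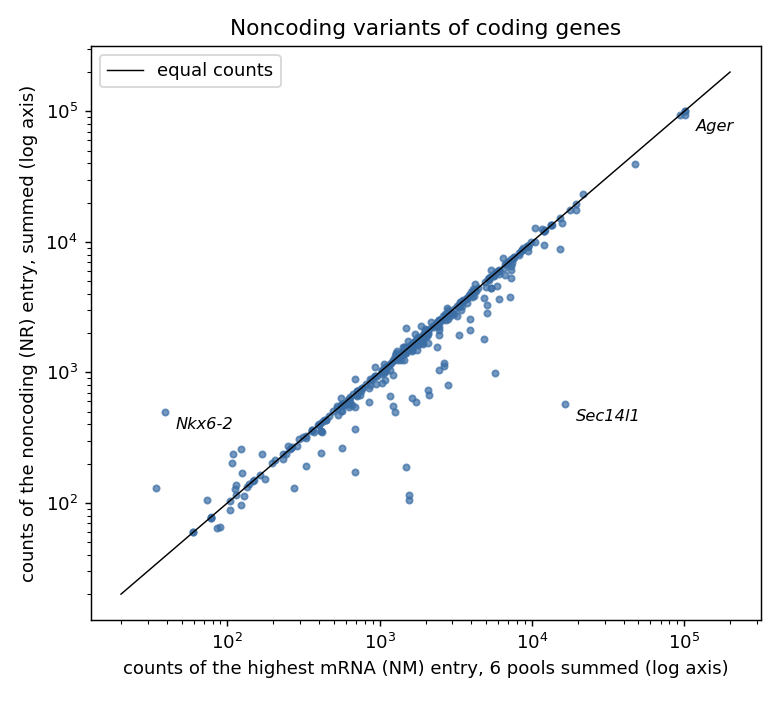
Counts of the noncoding entry (y axis) against counts of the highest mRNA entry of the same gene (x axis), each summed over the 6 pools on log axes, with 1 point per variant with a mean of at least 10 counts and a line at equal counts. Of the 377 points, 280 lie between 90% and 110% of the line, while Sec14l1 (3.43%) lies far below it and Nkx6-2 (1264%) far above.

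The question the study put to these libraries was which transcripts change in lung when TSPO is lost. No noncoding entry passed the test. With edgeR's quasi-likelihood test, 0 of 1178 tested entries passed an adjusted p of 0.05 (adjusted over all 33308 entries tested), and the smallest adjusted p of a noncoding entry was 0.9999. Over all entries 1 was called (0.003%), which was Tspo itself. Tspo NM_009775, the targeted gene, stood at 94.4, 92.4 and 92.5 CPM in WT and 13.2, 13.4 and 11.97 CPM in KO, with a log2 fold change of −2.86 (SE 0.11, edgeR's quasi-likelihood test, adjusted p = 3.43e-08), so the levels fitted the labels of all 6 pools, although the counts cover the whole transcript and not the deleted exons alone. The lung was marked by Sftpc, the surfactant protein of alveolar type 2 cells, at 10678 to 14324 CPM in every pool. limma-voom and DESeq2 also called 0 noncoding entries, although DESeq2 gave an adjusted p to 2585 of the 2591 with any count. Rn45s, H19, Rmrp, Rpph1 and Mir5109 were among those without one.

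At an unadjusted p under 0.05, edgeR's quasi-likelihood test gave 48 noncoding entries and limma-voom 42 of the same 1178. DESeq2, run with no prior filter on low counts, gave 22 of the 2585 to which it assigned an adjusted p. The 48 were 5 higher in KO (0.424%, against 0.573% of all entries tested) and 43 lower in KO (3.65%, against 2.1%). The KO pools lay wholly above the WT pools in 27 entries (2.29%, against 2.55% of all entries) and wholly below in 60 (5.09%, against 4.22%). As a whole, 549 entries had a higher and 629 a lower mean in KO (53.4% lower, against 49.3% of all entries), and the median log2 fold change was −0.02, against 0.00 over all entries.

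The noncoding entries had larger ratios between pools than the table as a whole. The ratio of the highest to the lowest pool had a median of 1.58, against 1.43 over all tested entries, and exceeded 2 in 279 entries (23.7%, against 15.8%). The median SE of a log2 fold change was 0.21, against 0.17. The entries were not matched for count level, on which such ratios and SEs depend. The 95% interval of the fold change left out a 2-fold change in either direction for 988 noncoding entries (83.9%, against 90% of all entries), and for the other entries the interval reached a 2-fold change or more.

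**Figure D2:**
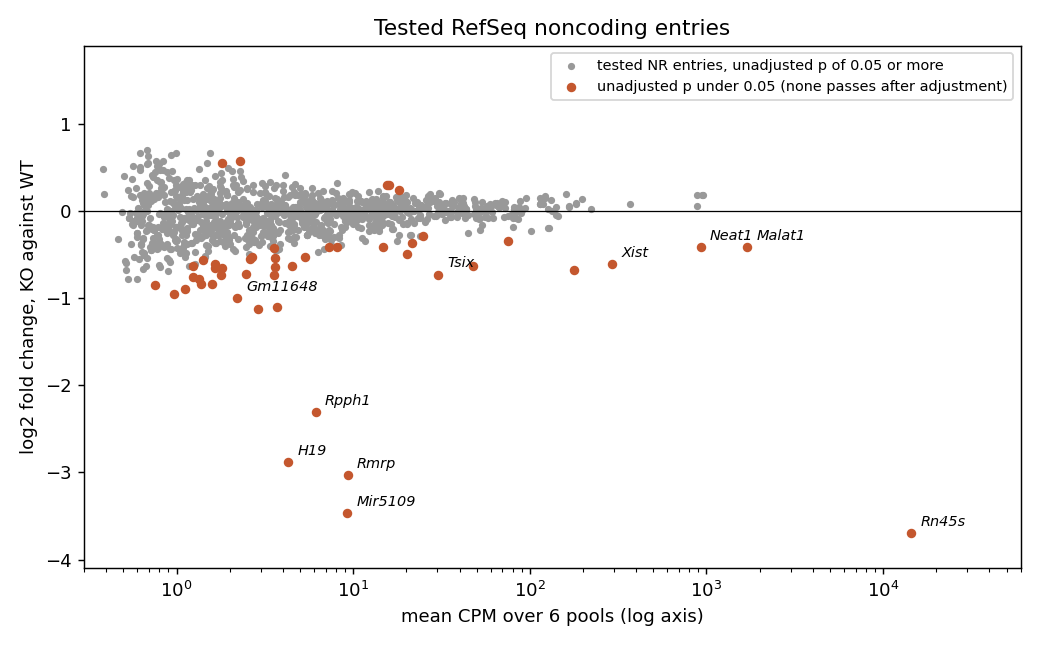
Log2 fold change of KO against WT (y axis) against the mean CPM over the 6 pools (x axis, log) for the 1178 tested noncoding entries, with the 48 at an unadjusted p under 0.05 in orange. The orange points lie above 0 in 5 cases and below in 43, and the 5 lowest, Rn45s, Mir5109, Rmrp, H19 and Rpph1, are entries in which 1 WT pool stood apart.

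Among the RNAs of the ribosome and of tRNA processing, WT pool 3 stood apart from all others. Rn45s NR_046233, the precursor of ribosomal RNA, had 1292, 1556 and 77643 CPM in WT pools 1, 2 and 3 and 2271, 2601 and 1352 CPM in KO. Its level in WT pool 3 was 29.9 times that of the next highest pool, while the other WT pools lay within or below the range of the KO pools. It took 77.3% of the noncoding counts of that pool, against 5.46% to 10.6% in the others. The log2 fold change was −3.69 (SE 1.16) and turned to 0.55 without WT pool 3.

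Other processing RNAs had the same pool at the top. Rmrp NR_001460 had 0.932, 0.366 and 48.6 CPM in WT and 3.16, 2.14 and 0.538 CPM in KO, with a log2 fold change of −3.03 (SE 1.19) that turned to 1.60 without WT pool 3. Rpph1 NR_002142 had 1.26, 0.941 and 28.7 CPM in WT and 2.20, 3.16 and 0.538 CPM in KO, with −2.30 (SE 0.98) and 0.87 without that pool. Each of these RNAs was at its highest in WT pool 3, and among the other 5 pools KO pools 1 and 2 lay above WT pools 1 and 2 and KO pool 3. Rprl3 NR_024198, too low to be tested, had counts of 5, 1 and 134 in the WT pools and of 6, 4 and 1 in KO. Mir5109 NR_039569, listed as a microRNA hairpin, had 0.877, 0.732 and 49.5 CPM in WT and 1.58, 2.14 and 0.658 CPM in KO, with a log2 fold change of −3.47 (SE 1.19) that turned to 0.88 without WT pool 3. Its highest pool was again WT pool 3.

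The entries more than 2-fold above every other pool in WT pool 3 were 6 of the 1166 with a mean of at least 10 counts (0.515%, against 0.111% of all such entries). Beside the 5 above, the sixth was Tbrg3, named after its values were seen, at 2.05 CPM against 0.784 to 0.957 CPM in the others. No noncoding entry stood so far above the rest in WT pool 1 or in KO pools 1, 2 and 3, where 0.0301%, 0.0211%, 0% and 0.0181% of all entries did. Of all 33188 such entries, 37 were so high in WT pool 3, and beyond the noncoding ones only Lars2 is described. Lars2 (a mitochondrial leucyl-tRNA synthetase), an mRNA picked with earlier results known, was at 15312 CPM in WT pool 3 and 263 to 540 CPM in the others. Why it was high there was not tested. The 9 histone genes measured, those with a mean of at least 10 counts, are of a family whose main mRNAs lack a poly(A) tail. Histone genes below that level were left out. Their summed level was 83.6 CPM in that pool and 77.5 to 94.2 CPM in the others. Hist1h1c, Hist3h2a and Hist1h2bc made up most of it. Of the 9, only Hist1h1e was highest in that pool, at 2.97 CPM against 0.778 to 1.54 CPM. Whether these histone counts came from mRNAs without a tail was not tested, so their sum does not decide on RNA selection. The part of RNA selection or RNA quality in these levels was not tested. Bc1, a small cytoplasmic RNA transcribed by RNA polymerase III and best known from neurons, shared the pattern in part, with 1.48, 1.73 and 5.59 CPM in WT and 2.42, 6.22 and 1.56 CPM in KO. WT pool 3 was above the other WT pools and KO pools 1 and 2 above KO pool 3, but its highest pool was KO pool 2. The log2 fold change of 0.29 (SE 0.51) rested on single pools, as it was 1.11 without WT pool 3, −0.49 without KO pool 2 and −0.03 without WT pool 1.

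**Figure D3:**
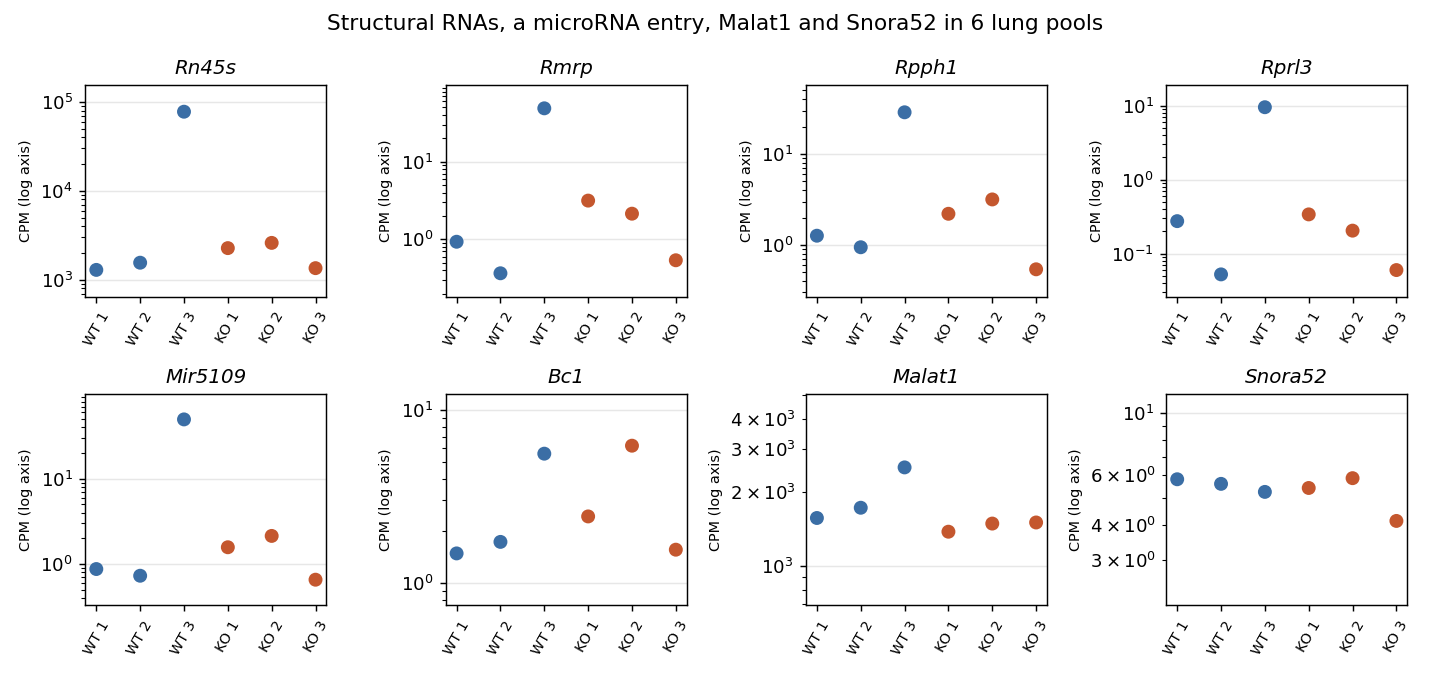
CPM (y axis, log, a separate scale in each panel) in each of the 6 pools (x axis; WT blue, KO orange) for 5 structural RNAs, the hairpin entry Mir5109, Malat1 and Snora52. WT pool 3 is far above the other pools for Rn45s, Rmrp, Rpph1, Rprl3 and Mir5109, and lies among the others for Snora52 (4.13 to 5.86 CPM).

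The share of all counts that fell on noncoding entries was 2.49%, 2.46% and 8.77% in WT and 2.46%, 2.47% and 2.39% in KO. It did not separate the genotypes (two-sided exact permutation test, p = 0.3, n = 3 pools per genotype), and the difference of −2.13 percentage points came down to −0.04 without WT pool 3. Without Rn45s the shares were 2.36%, 2.30% and 2.14% in WT and 2.23%, 2.21% and 2.26% in KO (exact permutation test, p = 0.7). With the variants of coding genes also left out, a choice made after the data were seen, they were 0.946%, 0.889% and 0.922% in WT and 0.833%, 0.806% and 0.825% in KO. That is 0.919% ± 0.0284 (SD, n = 3) in WT and 0.821% ± 0.0135 (SD, n = 3) in KO, with all KO pools below all WT pools (exact permutation test, p = 0.1, the lowest value a design of 3 against 3 can reach). Malat1, Neat1 and Xist, also picked after the data were seen, together held 0.354%, 0.335% and 0.386% of counts in WT and 0.266%, 0.264% and 0.271% in KO. The other entries held 0.593%, 0.555% and 0.537% in WT and 0.567%, 0.542% and 0.554% in KO, which is a description with no test, since the 3 RNAs were taken out for their values.

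The abundant nuclear RNAs Malat1 and Neat1 had lower means in KO, and neither passed the test. Malat1 NR_002847 (chr19:5795690-5802672), a nuclear speckle RNA, had 1572, 1732 and 2531 CPM in WT and 1382, 1492 and 1507 CPM in KO. All KO pools lay below all WT pools, although KO pool 3 was only just below WT pool 1, and the log2 fold change was −0.41 (SE 0.19), or −0.17 without WT pool 3. Neat1 NR_003513 (chr19:5824708-5845480), the scaffold of paraspeckles, had 1077, 998 and 1111 CPM in WT and 708, 771 and 916 CPM in KO. Here too the groups did not overlap, and the log2 fold change of −0.41 (SE 0.15) ranged from −0.52 to −0.33 when each pool was left out in turn. The counts of Neat1 were the same as those of a FANTOM3 clone entry. In whole lung, fewer cells of a type and less RNA per cell cannot be told apart.

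Other abundant RNAs of nuclear bodies and chromatin overlapped between the genotypes. Norad, listed in the table as 2900097C17Rik NR_024329, binds PUMILIO proteins and guards genome stability, and had 148, 136 and 133 CPM in WT and 138, 144 and 148 CPM in KO (log2 fold change 0.04, SE 0.10). Tug1, an RNA linked to Polycomb and to retina development, had 43.4, 41.6 and 39.8 CPM in WT and 43.8, 39.6 and 39.6 CPM in KO. Neither showed a separation. Gas5, host of many snoRNAs, had 40.3, 19.7 and 24.8 CPM in WT and 34.5, 36.3 and 27.6 CPM in KO, where the WT pools alone spanned the whole range. Its log2 fold change of 0.22 (SE 0.21) was 0.57 without WT pool 1 and 0.0095 without WT pool 2. Of the 12 tested entries on the list of nuclear body and chromatin RNAs, 4 were higher and 8 lower in KO, 0 passed the test, and the median log2 fold change was −0.06.

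Fendrr NR_045471, an RNA next to Foxf1 that is needed for the development of heart and body wall and is high in lung mesenchyme, had 106, 121 and 102 CPM in WT and 94.1, 74.7 and 112 CPM in KO. Only KO pool 3 reached the WT levels, and the log2 fold change of −0.23 (SE 0.14) was −0.08 without KO pool 2 and −0.38 without KO pool 3. Dnm3os, the host of microRNAs of the miR-199 and miR-214 families, had 3.45, 4.97 and 7.01 CPM in WT and 5.52, 2.75 and 4.19 CPM in KO, and overlapped. The list of lung mesenchyme and Hox RNAs had 3 tested entries, all with a lower mean in KO, and none passed the test. The median of −0.30 was the value of Dnm3os. The third entry, Mir143hg NR_045402, had 6.58, 3.82 and 6.09 CPM in WT and 3.38, 3.11 and 4.19 CPM in KO, and overlapped. Its log2 fold change was −0.62 (SE 0.22, edgeR's quasi-likelihood test, unadjusted p = 0.0151).

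Per kilobase of transcript, with lengths from GENCODE, the mean level over the 6 pools was 244 CPM per kb for Malat1, 42.7 for Fendrr, 28.7 for Norad, 19.1 for Peg13 and 16.3 for Xist. It was 8.75 for Tug1, 4.28 for Meg3 NR_027651 and 0.216 for Kcnq1ot1. The long Kcnq1ot1 was thus at the bottom of the order although its CPM was above that of Meg3. The value of Meg3 depends on the entry, as NR_003633, of 14548 nt, gave 0.511 CPM per kb. Neat1 was left out of this order, as the GENCODE transcript matched to it, of 3004 nt, covers a part of the RefSeq gene alone, and dividing by that length would give 309.7 CPM per kb. The order of neighbours was not tested.

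The RNAs of imprinted loci, which are expressed from the maternal or the paternal copy alone, had mostly lower means in KO. Kcnq1ot1 NR_001461, the paternally expressed antisense RNA that silences genes of the Kcnq1 domain, had 20.2, 18.5 and 31.7 CPM in WT and 17.5, 16.9 and 15.6 CPM in KO. The groups did not overlap, WT pool 3 was the highest, and the log2 fold change was −0.49 (SE 0.17), or −0.21 without WT pool 3. Reads of Kcnq1 and of its antisense RNA cannot be told apart where they overlap, since the strand setting of the counting is not given. Meg3 NR_027651, a maternally expressed RNA of the Dlk1 to Dio3 locus, had 8.72, 9.31 and 10.9 CPM in WT and 5.18, 7.24 and 9.69 CPM in KO, and KO pool 3 lay within the WT range. Its log2 fold change of −0.39 (SE 0.20) was −0.19 without KO pool 1 and −0.62 without KO pool 3. The 4 entries of Meg3, which share reads, gave −0.39 to −0.23.

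Peg13, a paternally expressed RNA within Trappc9, was the most even of the imprinted RNAs shown, with 91.9, 94.98 and 82.8 CPM in WT and 89.8, 92.2 and 91.1 CPM in KO. Its log2 fold change was 0.02 (SE 0.10) and −0.03 without WT pool 3. H19 NR_001592, a maternally expressed RNA of fetal tissue and muscle, had 1.10, 20.3 and 1.20 CPM in WT and 0.451, 0.867 and 1.85 CPM in KO. The level of WT pool 2 was 10.9 times that of the next highest pool, and the other 5 pools overlapped. The log2 fold change of −2.88 (SE 0.93) was −0.13 without WT pool 2. Of the 13 tested entries on the list of imprinted loci, 2 were higher and 11 lower in KO, and 0 passed the test. The median log2 fold change was −0.34, the value of Meg3 NR_046475, against 0.00 over all entries. The entries are not separate loci, as all the Meg3 entries, which share reads, were among the lower ones. H19 was among them too, with a value that rested on WT pool 2. A fall of imprinted RNAs as a class was not tested.

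Other entries and markers stood out in the same WT pool 2. The 2 entries of A930016O22Rik, an RNA with no role given in the annotation, had 10.4 and 8.32 CPM in that pool and at most 2.99 and 2.39 CPM in the others. Their log2 fold changes were −1.10 (SE 0.47) and −1.12 (SE 0.51), and −0.00 and 0.10 without WT pool 2. With H19 they were the 3 entries more than 2-fold above every other pool in WT pool 2 (0.257%, against 0.343% of all such entries). The summed level of 4 skeletal muscle genes was 99.3 CPM in WT pool 2 and 7.04 to 10.3 CPM in the other pools, and all 4 of these genes were highest in that pool. Myh4 and Acta1, which define fast and skeletal muscle fibres, were at 0 to 0.274 CPM in the other pools. The summed level of 3 fat genes was 46.8 CPM in WT pool 2 and 17.5 to 30.3 CPM in the others. Their part in the levels of H19 and A930016O22Rik was not tested.

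**Figure D4:**
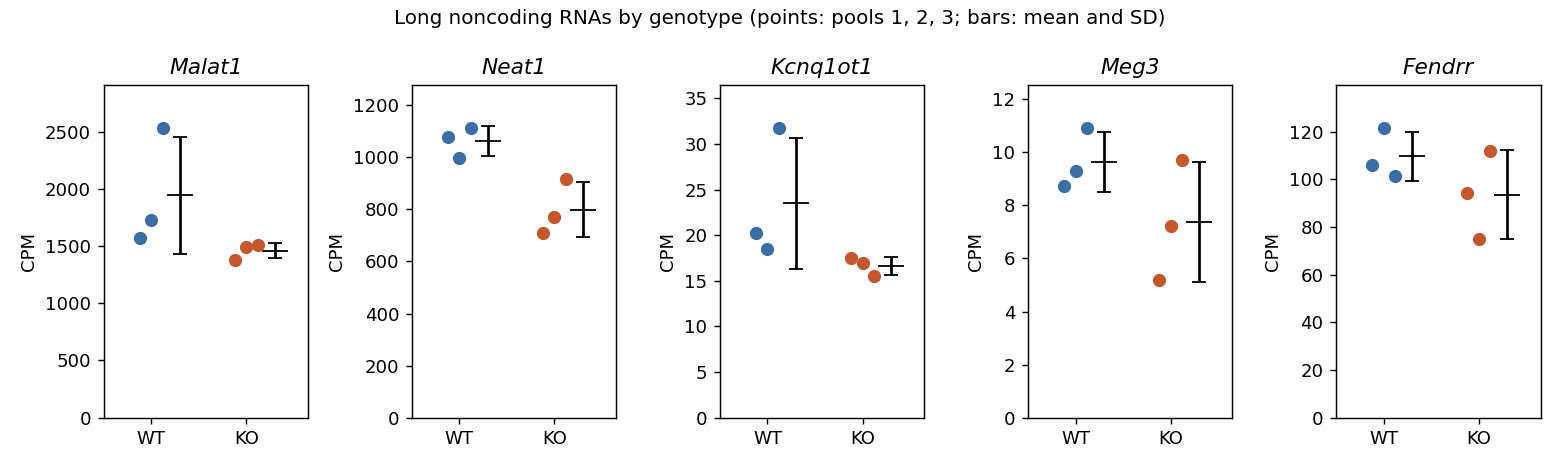
CPM (y axis, from 0, a separate scale in each panel) of Malat1, Neat1, Kcnq1ot1, Meg3 NR_027651 and Fendrr in WT (blue) and KO (orange), with points for pools 1, 2 and 3 from left to right and bars for the mean and SD (n = 3 pools). The groups do not overlap for Malat1, Neat1 and Kcnq1ot1, and KO pool 3 lies within the WT range for Meg3 and Fendrr.

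On the X chromosome, Xist and Tsix had lower means in KO without passing the test, and both are read from the same locus. Xist coats and silences the inactive X chromosome in female cells, and Tsix is its antisense partner. The lines below give 60 bases that lie in exons of both, to show that the transcripts are complementary there (GRCm38, no capitals).

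Xist, chrX:103481275-103481334, minus strand: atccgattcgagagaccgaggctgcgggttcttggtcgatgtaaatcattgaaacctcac

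Tsix, chrX:103481275-103481334, plus strand: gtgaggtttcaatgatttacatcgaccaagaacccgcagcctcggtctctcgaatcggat

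Xist NR_001463 had 431, 328 and 301 CPM in WT and 338, 220 and 138 CPM in KO, so that only KO pool 1 reached the WT range. Its log2 fold change was −0.61 (SE 0.25), and −0.68 (SE 0.25) for the second entry, NR_001570. Without KO pool 3 these were −0.34 and −0.41, and without KO pool 1 they were −0.98 and −1.04. Tsix NR_002844 had 43.6, 36.2 and 33.1 CPM in WT and 32.1, 22.3 and 13.8 CPM in KO. The groups did not overlap, KO pool 1 being just below WT pool 3, and the log2 fold change was −0.73 (SE 0.22), with −0.47 without KO pool 3 and −1.05 without KO pool 1. Of the 4306 exon bases of Tsix, 1980 (46.0%) lie in exons of Xist, which is 11.03% of the 17946 exon bases of Xist. The counts of Tsix were 10.1% to 11.03% of those of Xist in the WT pools and 9.50% to 10.1% in the KO pools. With the strand setting not given, the reads of Xist and of Tsix cannot be told apart in that stretch.

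The level of Y-linked mRNAs ran opposite to that of Xist. The summed level of 4 Y-linked genes (Ddx3y, Uty, Kdm5d and Eif2s3y) was 28.0, 29.4 and 53.8 CPM in WT and 33.2, 51.4 and 61.2 CPM in KO. WT pools 1 and 2 and KO pool 1, the 3 pools highest in Xist, were the 3 lowest in the Y-linked sum, and KO pool 3 was the lowest in Xist and the highest in the Y-linked sum. Every pool had counts of Xist and of Y-linked genes, and the sex makeup and the genotype cannot be told apart for Xist and Tsix in 3 pools against 3. Ftx, an RNA that activates Xist, had 6.20, 3.82 and 5.66 CPM in WT and 4.001, 5.66 and 3.71 CPM in KO, with a log2 fold change of −0.22 (SE 0.22). Jpx, another activator of Xist, had 1.75, 2.56 and 1.56 CPM in WT and 1.52, 1.78 and 1.38 CPM in KO, with a log2 fold change of −0.34 (SE 0.26). Both overlapped between the genotypes. All 6 tested entries of the X inactivation list had a lower mean in KO, against 49.3% of all entries, and 0 passed the test. They bear 4 symbols and are not separate observations, as the entries of Xist are of the same gene and Tsix overlaps it.

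**Figure D5:**
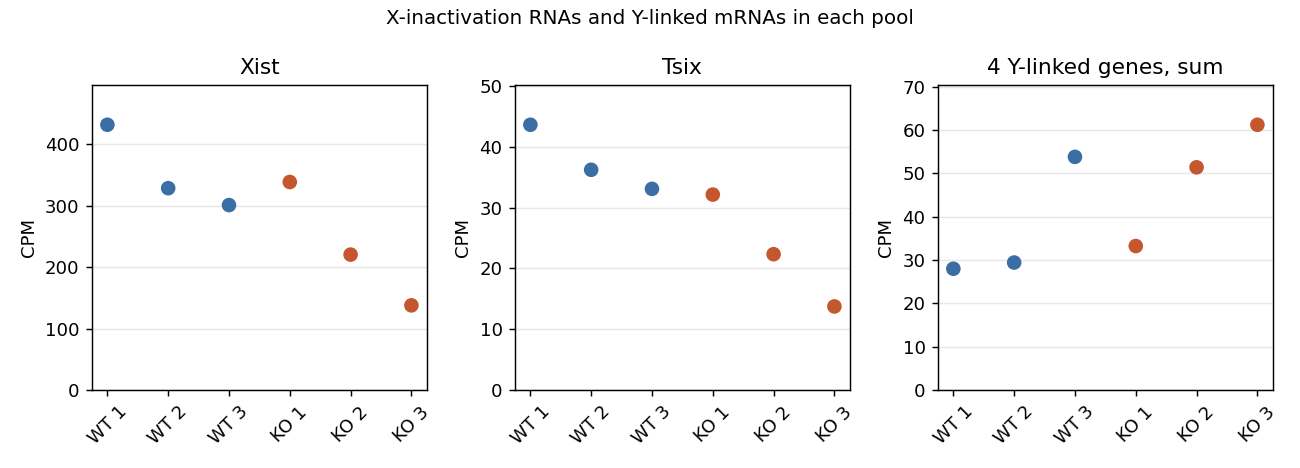
CPM (y axes, from 0) of Xist NR_001463, Tsix and the sum of 4 Y-linked mRNAs in each of the 6 pools (x axes; WT blue, KO orange). The 3 pools highest in Xist are the 3 lowest in the Y-linked sum, and KO pool 3 is the lowest in Xist (138 CPM) and the highest in the sum (61.2 CPM).

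Among the less studied entries, those with the smallest unadjusted p had tight pools and modest folds, and none passed after adjustment. Picking by p favours tight pools and groups that do not overlap, so both follow from the choice. Over all entries, 4.22% had the KO pools wholly below the WT pools. Gm11648 NR_045346 (chr11:103344753-103350126) had 3.45, 2.51 and 2.83 CPM in WT and 1.41, 1.43 and 1.56 CPM in KO, and its counts were the same as those of a FANTOM3 clone entry. All KO pools lay below all WT pools, and the log2 fold change was −1.001 (SE 0.23, edgeR's quasi-likelihood test, unadjusted p = 6.41e-04, adjusted p = 0.9999). 5830416P10Rik NR_028427 had 4.44, 4.03 and 4.96 CPM in WT and 2.59, 2.55 and 2.93 CPM in KO, with a log2 fold change of −0.73 (SE 0.19). Gm19557 NR_045322 had 4.22, 4.55 and 4.46 CPM in WT and 2.76, 2.55 and 3.23 CPM in KO, with −0.63 (SE 0.18). In both, the groups did not overlap. A930013F10Rik and E130112N10Rik had log2 fold changes of −0.72 (SE 0.23) and −0.84 (SE 0.27) without overlap, at levels of 1.53 to 3.50 and 0.718 to 1.99 CPM over the pools. The annotation used here gives no function for these 5 RNAs. It lists Gm11648 as Arhgap27os3, an opposite strand name, and 5830416P10Rik as Mirt1. With the strand setting not given, reads of Gm11648 cannot be told from those of an overlapping gene on the other strand.

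Entries named as pseudogenes split evenly, with 11 of 22 tested entries higher and 11 lower in KO and 0 called. Some RNAs that the annotation lists as transcribed pseudogenes bear other names, such as Gm1821 and Gm15772, and are not among the 22. Pisd-ps3 NR_003518, a copy of the gene of phosphatidylserine decarboxylase, the mitochondrial enzyme that makes phosphatidylethanolamine, had 82.5, 87.3 and 83.8 CPM in WT and 59.96, 64.3 and 75.7 CPM in KO (log2 fold change −0.34, SE 0.11). Pisd-ps1, named after its values were seen, had 8.94, 10.04 and 8.71 CPM in WT and 6.93, 6.48 and 7.54 CPM in KO (−0.41, SE 0.14). The groups did not overlap in either, and reads of near-identical copies may have been shared between them and the coding gene. Tmem181b-ps had 18.4, 15.01 and 17.1 CPM in WT and 13.5, 11.9 and 12.7 CPM in KO (−0.41, SE 0.12). Gpr137b-ps, also named after its values were seen, went the other way, with 13.5, 14.8 and 13.6 CPM in WT and 17.98, 17.7 and 16.1 CPM in KO (0.30, SE 0.11), and its groups did not overlap either. It was among the 5 entries higher in KO at an unadjusted p under 0.05. The other 4 of these, named after their values were seen, were Znf41-ps, 1110019D14Rik and variants of Fbxo34 and Tor2a.

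By kind of RNA, no group held a called entry. Of the tested entries, those with a higher mean in KO were 267 of 622 with a predicted or RIKEN name (median log2 fold change −0.03), 215 of 375 variants of coding genes (0.02) and 22 of 38 hairpins (0.04). They were 27 of 90 other named RNAs (−0.11), 5 of 17 host genes (−0.22) and 1 of 8 RNAs named as antisense or opposite strand (−0.21). The kinds follow the deposited symbols, so 1700020I14Rik, which the annotation lists as Oip5os1, is not among these 8. Of the immune RNAs listed, 4 of 7 tested entries were higher and 3 lower, with a median of 0.07. Mir22hg, the host of the microRNA miR-22, had 14.6, 15.5 and 16.9 CPM in WT and 13.6, 16.6 and 15.7 CPM in KO. AI662270 had 8.28, 6.01 and 8.21 CPM in WT and 9.30, 7.50 and 6.70 CPM in KO. Both overlapped between the genotypes.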

How the data were processed

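Lung RNA of 6 pools was sequenced by the authors on an Illumina HiSeq as 50 bp paired-end reads (the labels name a digital gene expression system) and aligned to mm10 with TopHat, per the labels. The deposited values are raw counts per transcript entry, not normalized. Not given in the sources used here are the tool that counted, its annotation, its strand setting and how shared reads were treated. Entries share reads, so CPM sums over entries exceed what single reads would give.

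All 64529 entries were fitted together in R 4.3.3 with edgeR 4.0.16 (filterByExpr, minimum count 10 and minimum total 15; TMM; quasi-likelihood F test of KO against WT; biological coefficient of variation 0.129), and p-values were adjusted by Benjamini-Hochberg over the 33308 entries tested, with a threshold of 0.05. SE is the log2 fold change over the root of F, and intervals cover 95%. The script was tested on simulated data. The replicates within a genotype had a chi-square per degree of freedom of 5.48 to 84.7 against counting noise, so none was a copy. TMM factors were 0.876 in WT pool 3 and 1.01 to 1.06 in the others. Names and positions came from the RefSeq tables (GRCm38.p6), which matched 3448 noncoding entries, and lengths from GENCODE transcripts, which matched 3184. Alternatives were limma-voom (limma 3.58.1), DESeq2 1.42.0, other scalings, filters and sets of entries, a replicate block, and each pool left out.

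Entries named were Rn45s, Malat1, Neat1, Meg3, Xist and Tsix, the 20 with the highest mean CPM, the 10 with the smallest p, up to 4 of the highest in each kind or list, and the 8 with the largest ratio between pools at a mean of at least 50 counts. Some that the rule takes are not described. The members and lists were chosen with earlier results of these data known.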

Additional observations from a re-analysis of the deposited data

How the results depend on the processing

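The number of noncoding entries called was 0 under every alternative except that with no filter. For DESeq2 this does not cover the entries to which it gave no adjusted p, among them Rn45s, H19, Rmrp, Rpph1 and Mir5109. With no filter on low counts, edgeR's quasi-likelihood test called 4 of them among 58 entries in all, H19, Rprl3, Mir5109 and Rn45s (adjusted p 0.0202, 0.0499, 0.0306 and 0.00785), each high in a single WT pool. With each pool left out, 0 were called. At an adjusted p of 0.1 the number stayed 0. The median log2 fold change of tested noncoding entries was −0.02, turned to 0.028 with no composition scaling, where the median of all entries was 0.04, and ranged from −0.04 to 0.00 with each pool left out. The number at an unadjusted p under 0.05, 48, fell to 22 with DESeq2 (of 2585 tested) and 27 without KO pool 2, and was 80 without KO pool 3. Tspo ranged from −2.88 to −2.81 with each pool left out. The share of counts in noncoding entries differed by −3.19 to −0.04 percentage points with each pool left out. The replicate numbers of the labels did not pair the pools, as the correlations of same-numbered deviations were 0.15, −0.15 and −0.21, and with the replicate block 0 noncoding entries were called and 39 had an unadjusted p under 0.05. With each pool left out in turn, the log2 fold change ranged from −4.25 to 0.55 for Rn45s, −3.62 to 1.60 for Rmrp, −2.86 to 0.87 for Rpph1, −4.05 to 0.88 for Mir5109, −0.49 to 1.11 for Bc1, −1.47 to 0.10 for A930016O22Rik NR_073015, −0.72 to 0.067 for F630028O10Rik, −0.42 to 0.0034 for Rian and −0.034 to 0.061 for Peg13. These turned in sign without WT pool 3, except A930016O22Rik, without WT pool 2, and Bc1, without WT pool 1 or KO pool 2. With limma-voom and with the replicate block, in that order, the log2 fold change was −1.46 and −0.71 for Rn45s, −0.44 and −1.20 for Rmrp, −0.82 and −1.09 for Rpph1, and −1.01 and −1.83 for Mir5109, and with limma-voom it was −1.83 for H19. The causes were not tested beyond the pools named. Depth limits what can be said of the 2541 entries not tested, and intervals cover counting and pool error in 3 pools per genotype.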
